A study of Mus musculus with 44 samples.

Results

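Flank prey are the translocation partners that landed beside an AsiSI cut but not at it. All AsiSI-MEF libraries were searched on chromosomes 1 to 19, X and Y for junctions at 500 bp to 10 kb from the closest motif in the study's AsiSI list, leaving out those within 10 kb of the bait break. The rule kept 9673 of 113691 analysed junctions (8.51%), at 377 of the 1108 motifs other than the bait motif. For comparison, proximal prey, closer than 500 bp, numbered 78573, and distal prey, with no motif within 10 kb, 25445. The inner limit cut through a smooth slope, with 51 junctions from 490 to 499 bp and 52 from 500 to 509 bp. At the outer limit 51 junctions lay from 9501 to 10000 bp and 42 from 10001 to 10500 bp.

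HTGTS amplifies from a primer beside 1 fixed break, the bait, and reads the prey sequence to which the bait end was joined. In the AsiSI-MEFs the bait was the AsiSI cut in Rsu1 on chromosome 2, and all these cells were C57BL/6 mouse embryonic fibroblasts, labelled WT, that carried an inducible AsiSI fused to a truncated estrogen receptor. They were given 3 µg/ml doxycycline for 24 h, with 1 µg/ml 4-hydroxytamoxifen (4OHT) in the last 6 h. The 6 libraries with the Cas9 bait came from MEFs without AsiSI, cut by Cas9 at the same locus, and their treatment labels, though not their titles, also name 4OHT. Each treated group had its own controls, and the 4 agents were given to AsiSI-MEFs as follows. CK-666, an inhibitor of the ARP2/3 actin nucleator, was used at 100 µM for 6 h in 6 libraries against 6 with DMSO. NU7441, an inhibitor of the end-joining kinase DNA-PKcs, was used at 10 µM in 3 libraries, with 1 h of pretreatment, against 3 with DMSO. Wiskostatin, an inhibitor of the WASP family member N-WASP, was used at 3 µM in 2 libraries against 2 with DMSO, and the study's legend gives both of these last doses in mM instead. Actin R62D-NLS, an actin that cannot polymerize and is sent to the nucleus, was expressed from a plasmid for 24 h before induction in 2 libraries against 2 with empty vector. The Cas9 bait was used with DMSO in 3 libraries and with CK-666 in 3. The study's legends call the replicates of the AsiSI-MEF experiments biological. The labels do not say whether they were separate cultures, so p-values measure the spread between these libraries, and the AsiSI-MEFs are engineered cell lines.

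AsiSI cuts its palindromic motif and leaves short 3′ overhangs. Broken ends that wait for homology-directed repair are resected: nucleases remove the 5′ strand over increasing distances, and an end that has lost sequence joins from a point inside the flank. Non-homologous end joining can ligate ends with little or no shared sequence, whereas annealing of a few shared bases on both ends leaves a microhomology at the junction. The strand of the prey tells which way the joined end runs. Here a prey is called outward when it runs away from the cut, as the cut's own shortened end does. Inward prey run from the junction back toward the cut, as the cut-side end of a separate break in the flank would. The other end of such a break runs outward, so an outward prey need not be the cut's own end.

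All 1109 listed motifs were found as GCGATCGC in the RefSeq copy of the reference (GRCm38, mm10), and AsiSI cuts after the fifth base. The bait motif and 7 of the 11 motifs with the most flank prey are shown in 30 bases each, with the motif in capitals, since the distances below are counted from these sites and their outer bases differ from site to site. The plus strand is given 5′ to 3′.
Bait, chr2:13271306-13271335, untranslated exon of Rsu1: accctgtcccaGCGATCGCgcaggcgcaca
DSB6, chr3:88531575-88531604, 805 bp from the start of Mex3a: ccgtggactccGCGATCGCgcgcgggagga
DSB16, chr1:143739605-143739634, untranslated exon of Glrx2: tcgtcgtggtcGCGATCGCctgctgctctc
Syde2 site, chr3:145989036-145989065, coding exon of Syde2: gatgaagggtcGCGATCGCgggacagcacc
DSB7, chr5:115632469-115632498, intron of Rab35: ggtcaagtcgcGCGATCGCtggagttggag
DSB61, chr8:64849536-64849565, intron of Klhl2: cgccaccccccGCGATCGCggcgtgtcctc
Zc3h10 site, chr10:128548243-128548272, untranslated exon of Rpl41: catttctccagGCGATCGCggcgaggtgac
Gm10801 site, chr2:98655111-98655140, in no annotated gene: gactttcagctGCGATCGCaaccaaggtag
The DSB numbers are those of the study's list of 97 frequently cut sites. The Zc3h10 site is shown because it has no END-seq signal in the study's list, and the Gm10801 site because its flank prey differ from all others, as described next.

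Analysed junctions per AsiSI library ranged from 335 to 17479 (median 4360), which sets the counting error of each share. Several libraries and 1 locus stood apart. The read names placed the libraries in 6 sequencing runs, and treated and control libraries of a pair shared a run in 13 of 13 pairs. The 6 libraries of run 20 (replicate 1 of wiskostatin, of actin R62D-NLS and of their controls, and replicate 3 of NU7441 and its control) held 7565 of the flank prey (78.2%) but 46.6% of the analysed junctions. The main results are therefore given with and without that run. The Gm10801 site led all motifs by number (489 flank prey in 21 libraries), yet had 0 proximal prey, and all of its flank prey lay to its right, 7106 to 9985 bp away. These junctions clustered in and around Gm10801, with 90% of them between chr2:98662264-98664041, where 55.3% of reference bases are soft-masked as repeats. The flank of this motif supplied 135 of 271 flank junctions (49.8%) with the Cas9 bait, in which AsiSI is not present. It made up 20.6% of flank prey in the other AsiSI runs and 0.727% in run 20. All 6 windows of 100 bp that held flank prey in the most libraries (11 to 15 libraries each) were in this block, so results that the site moves are given without it as well.

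Flank prey made up a small and variable share of each library. In the 6 DMSO controls of CK-666 the shares were 2.47%, 2.57%, 4.49%, 3.71%, 1.84% and 4.03% of their analysed junctions. The controls of run 20 were far higher, at 18.8% for NU7441, 14.1% for wiskostatin and 14.01% for actin R62D-NLS. Their counterparts in other runs were at 3.74% and 4.22% (NU7441 controls), 2.62% (wiskostatin control) and 2.01% (empty vector). The ranges of the 6 libraries of run 20 (8.57% to 18.8%) and of the other 20 AsiSI libraries (1.54% to 4.80%) did not overlap, for treated and control libraries alike. Counting error was small beside this gap: the highest share, 18.8%, had a 95% Wilson interval from 18.2% to 19.4%, and the smallest library, with 6 flank prey of 335 junctions, had one from 0.823% to 3.85%.

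**Figure D1:**
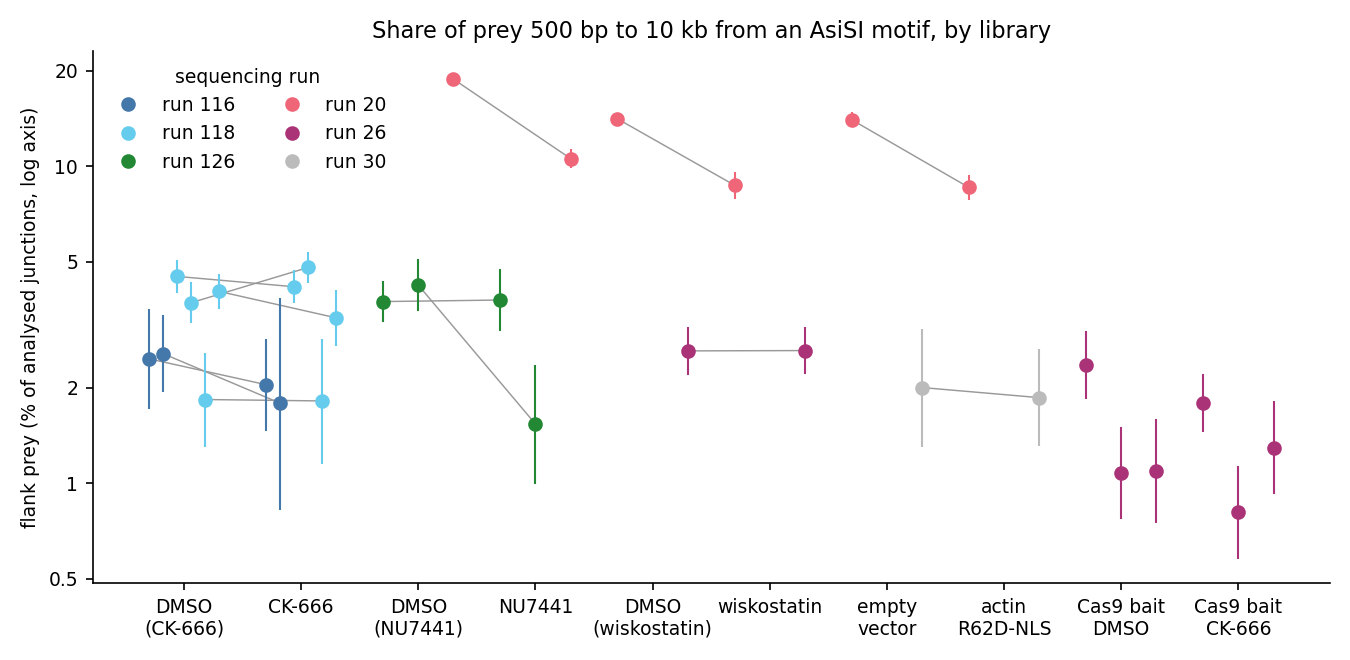
Share of flank prey in each library as a percentage of its analysed junctions (log axis), by group; points are libraries, bars 95% Wilson intervals, colours sequencing runs, and lines join treated and control libraries of a pair. The 6 libraries of run 20 sit between 8.57% and 18.8%, above the other 20 AsiSI-MEF libraries (1.54% to 4.80%), while the Cas9-bait libraries sit between 0.811% and 2.37%.

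The density of prey fell steeply with distance from the cut over a few kilobases. Of the 9673 flank prey, 2176 lay from 500 bp to 1 kb, 2809 from 1 to 2 kb, 3214 from 2 to 5 kb and 1474 from 5 to 10 kb. The median distance, leaving out the Gm10801 site, was 1806.5 bp, with 25% of prey nearer than 1037.8 bp and 10% farther than 5139.7 bp. Density is given as fold over the density of distal prey of the same orientation in the same library, again without that site. In the 3 controls of run 20, outward prey stood at 611-fold ± 231 (SD) from 500 to 749 bp, 440-fold ± 160 from 1 to 1.5 kb, 231-fold ± 101 from 2 to 3 kb, 32.2-fold ± 15.6 from 5 to 7.5 kb and 3.04-fold ± 0.503 from 10 to 20 kb. In the 10 controls of other runs the same bins gave 108-fold ± 62.8, 48.2-fold ± 26.4, 25.02-fold ± 8.90, 6.43-fold ± 4.15 and 1.57-fold ± 1.45. The 2 sets of outward means fell at every step along the flank and were close to the distal level from 20 to 50 kb (1.46-fold ± 0.0357 and 1.14-fold ± 0.650). Over all treated and control libraries the median distance was 1787 bp in the 6 libraries of run 20 and 1913.5 bp in the other 20.

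**Figure D2:**
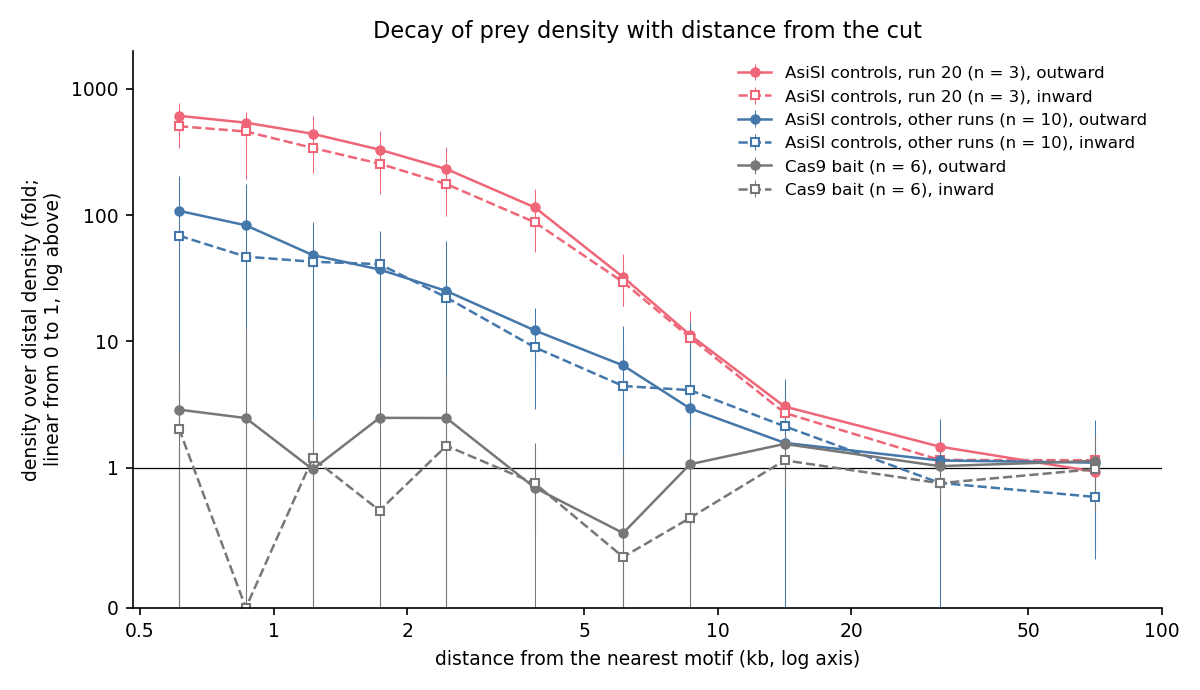
Density of prey by distance from the nearest motif (kb, log axis) as fold over the distal density of the same library and orientation, without the Gm10801 site; symbols are means over control libraries (all 6 libraries for the Cas9 bait), bars run from the lowest to the highest library, and the vertical axis is linear from 0 to 1 and logarithmic above. Density fell from 611-fold (run 20) and 108-fold (other runs) for outward prey at 500 to 749 bp to about the distal level past 20 kb, and the means with the Cas9 bait were at most 2.88-fold.

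Across the whole flank the excess over distal prey was present in every control library. The mean log2 ratio of flank to distal density was 4.91 ± 1.27 (SD, n = 13) for outward prey, with libraries from 3.45 to 7.52, and 4.53 ± 1.31 for inward prey, with libraries from 3.03 to 7.26. Both were above 0 in 13 of 13 libraries (exact sign-flip test, p = 0.000244 each, the smallest it can give, and 0.000488 adjusted over 4 density tests). At the density of distal prey, 198 flank junctions would be found over the 26 libraries together. Without run 20 the means were 4.29 and 3.90 (exact sign-flip test, p = 0.00195 each).

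With the Cas9 bait, in MEFs without AsiSI, the flanks of the same motifs held few prey. The 3 DMSO libraries had 60, 34 and 26 flank prey and the 3 CK-666 libraries 85, 33 and 33, or 0.811% to 2.37% of analysed junctions. Their mean log2 density ratio was 1.12 ± 0.488 (SD, n = 3) for outward prey against 4.78 ± 1.19 in the 11 AsiSI libraries with DMSO. For inward prey it was 0.674 ± 0.884 against 4.36 ± 1.26. Both differences, 3.67 and 3.68, passed (exact permutation test, p = 0.00275 each, the smallest it can give, also after adjustment). Without the Gm10801 site the differences were 4.37 and 5.21. All 6 Cas9 libraries were in run 26, which held 1 AsiSI library with DMSO (wiskostatin control 2), at 3.78 and 3.84. Within that run the differences were 2.66 and 3.16, where 0.25 is the smallest p possible. The cells differed in the nuclease at the bait, in having AsiSI, in their source and in transfection with a guide 48 h before lysis. For all but 1 AsiSI library with DMSO the sequencing run differed as well. These differences cannot be told apart here.

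Outward and inward prey were close to equal in number, at 5035 and 4638. The outward share was 52.2% ± 5.80 (SD, n = 13) in the control libraries, with the lowest at 40% (empty vector replicate 2, 20 flank prey), the median at 51.8% and the highest at 64.6%. In the 3 controls of run 20, which hold the most prey, it was 51.2%, 54.1% and 54.6%. Distal prey, given the same call relative to their nearest motif, were outward in 45.6% ± 3.14, with libraries from 40.7% to 50.8%. The flank share was higher in 10 of 13 libraries, by 6.57 percentage points ± 7.33 on average (exact sign-flip test, p = 0.00464, 0.00928 adjusted over 2). From 1 kb outward the difference was 5.36 points and no longer passed (exact sign-flip test, p = 0.0518). Both differences are taken from a mean distal share below an equal split, and the flank share itself was not tested against one.

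The outward share did not differ detectably between the nearest and farthest distance bins, and the bins between them were not tested. Summed over the 26 libraries it was 50.9% from 500 bp to 1 kb (95% Wilson interval 48.8% to 53.0%) and 50.9% from 1 to 2 kb (49.1% to 52.8%). From 2 to 5 kb it was 53.6% (51.9% to 55.3%). From 5 to 10 kb it was 52.6% (50.1% to 55.2%), or 50.9% without the Gm10801 site. These intervals cover counting error only. Over the 13 control libraries the nearest bin exceeded the farthest by 7.71 points ± 23.2 (exact sign-flip test, p = 0.281), a spread set by libraries with few prey past 5 kb. Left and right flanks were also nearly equal, with 50.5% of prey on the left in run 20 and 53.0% in the other runs, without the Gm10801 site.

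The 2 orientations were close to equal in number but were joined differently. Overlap is the number of bases at the junction that match both bait and prey; a junction is called blunt at 0, short at 1 to 5, long at 6 or more, and an insertion where extra bases separate bait and prey. Of outward flank prey in the controls, 35.0% ± 5.73 (SD, n = 13) were blunt, with libraries from 22.6% to 42.7%. Of inward flank prey 12.1% ± 4.21 were blunt, from 5.88% to 19.5%, so the 2 ranges did not overlap. Short overlaps were the reverse, at 55.4% ± 7.89 of outward and 74.5% ± 8.81 of inward prey. Blunt joins were higher among outward prey in 13 of 13 libraries (by 22.9 points) and short overlaps lower in 13 of 13 (by 19.1 points; exact sign-flip test, p = 0.000244 and 0.000488 adjusted over 6 for each). These tests of orientation were added with the values already known. The differences were 26.9 and -23.5 points without the Gm10801 site, and without run 20 they were 21.3 and -16.6 points (p = 0.00195 each, exact). Long overlaps (1.49% and 3.06%) and insertions (8.09% and 10.3%) did not differ detectably by orientation (adjusted p = 0.127 and 0.115, exact sign-flip test).

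The difference in structure was present along the flank and on both sides of the cut. Summed over the 26 libraries, blunt joins made up 35.4% of outward and 12.7% of inward prey from 500 bp to 1 kb, 41.5% and 12.2% from 1 to 2 kb, and 42.0% and 11.1% from 2 to 5 kb. From 5 to 10 kb, without the Gm10801 site, they made up 40.3% and 15.3%. To the left of the cut the 2 values were 38.8% and 12.3%, and to the right 39.0% and 12.7%, although the strand that counts as outward is opposite on the 2 sides. Distal prey from 10 to 100 kb showed 18.6% and 17.3%, and flank prey with the Cas9 bait, without the Gm10801 site, 33.8% of 77 outward and 37.3% of 59 inward. Most short overlaps were of 1 or 2 bases: 28.7% of outward prey shared 1 base and 15.1% shared 2, against 37.3% and 27.4% of inward prey.

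The bait end differed along with the prey strand. The bait sequence reached exactly to the cut in 43.2% ± 9.91 (SD, n = 13) of outward and 28.7% ± 3.89 of inward flank prey, a difference of 14.5 points that had the same sign in 11 of 13 libraries (exact sign-flip test, p = 0.00122, 0.00183 adjusted over 6). It stopped 1 base short in 11.3% ± 5.59 of outward and 33.0% ± 4.37 of inward prey, lower among outward prey in 13 of 13 libraries (p = 0.000244, exact sign-flip test, 0.000488 adjusted). A bait shortened by 5 bases or more was found in 12.6% of outward and 12.7% of inward prey summed over the 26 libraries. Bases shared by bait and prey are counted on both, so the bait end and the overlap are not independent measures.

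Set against proximal prey, inward flank prey differed in structure, and for outward prey no class passed the test. Outward proximal prey were blunt in 34.5% ± 6.12 and short in 55.8% ± 5.32 (adjusted p from 0.233 to 0.864 over the 4 classes, exact sign-flip test, 8 tests). For blunt joins this mean covers runs that went opposite ways. The 3 controls of run 20 were blunt in 39.8%, 42.7% and 38.6% of outward flank prey against 31.9%, 29.5% and 32.03% of outward proximal prey, 9.24 points higher on average, whereas without that run the difference was -2.08 points. With the outer limit at 5 kb it was 5.33 points over all 13 controls and passed before adjustment (p = 0.0493, exact sign-flip test). Inward proximal prey had long overlaps in 55.2% ± 9.52 and short ones in 20.4% ± 3.72, whereas inward flank prey had 3.06% and 74.5%. Both differences, -52.1 and 54.1 points, ran the same way in 13 of 13 libraries (p = 0.000244, exact sign-flip test, 0.000977 adjusted). Proximal prey share the motif with the bait itself, and an inward prey reads across it. Flank prey start at least 500 bp from it. The contrast in long and short overlaps is thus favoured by the zone limit itself, and its test is no separate support. For insertions the outcome rested on the Gm10801 site, where 39.3% of prey had inserted bases: without it, insertions were fewer in the flank than proximally by 3.19 points for outward prey (p = 0.00854) and by 8.32 for inward prey (p = 0.000732, exact sign-flip tests, unadjusted).

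**Figure D3:**
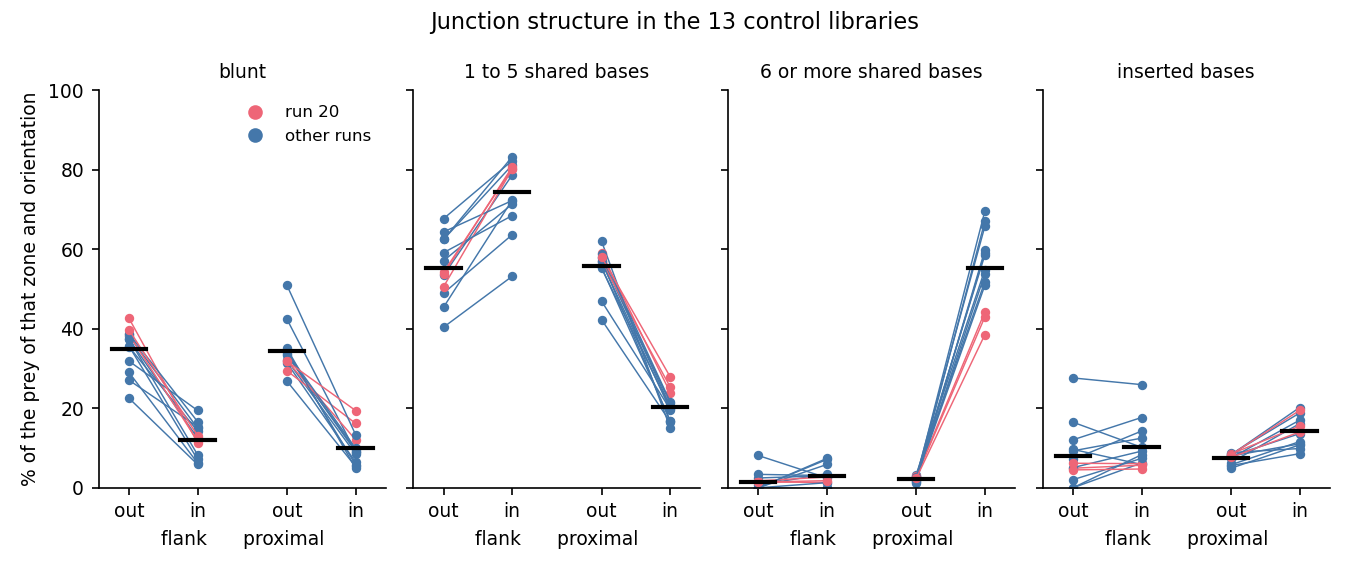
Share of flank and of proximal prey in each junction class, for outward (out) and inward (in) prey of the 13 control libraries, as a percentage of the prey of that zone and orientation; lines join the 2 orientations of a library, red marks run 20, and black bars are means. Blunt joins fell from 35.0% of outward to 12.1% of inward flank prey in every library, and long overlaps were common only in inward proximal prey (55.2%).

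The parent motifs were mostly those with strong END-seq signal, a sequencing measure of broken ends that the study reports for the same list. Only the order of those values was used here. The 96 sites ranked 1 to 97 without the bait held 5663 flank prey, or 59.0 per site, and 94 of them had at least 1. Ranks 98 to 300 held 2960, or 14.6 per motif. Without the Gm10801 site, the next 300 motifs held 150, or 0.502 per motif, and the 509 ranked lower held 411. Per 100 proximal prey these 4 tiers had 11.8, 10.8, 11.6 and 23.9 flank prey. The first 3 tiers were thus close to each other and the last was higher. In the last tier the Zc3h10 site alone held 139 of the 411 flank prey and 303 of the 1718 proximal prey. Median distances were 1805, 1786, 2082 and 2041 bp. Outward shares of the tiers were 52.2%, 51.0%, 45.3% and 55.2%. By library, the first tier gave 56.6% ± 9.26 (SD, n = 13) of flank prey in the controls.

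Across motifs, flank prey followed proximal prey more closely than END-seq rank. Spearman's rho was 0.810 between flank and proximal number and 0.649 between flank number and END-seq signal over 1108 motifs, and 0.746 and 0.459 over the 96 frequently cut sites without the bait. These values are descriptions, since sites share libraries and differ in the ease of mapping. Run 20 and the other runs ordered the frequently cut sites alike (rho 0.875), as did outward and inward prey (0.926). The Zc3h10 site, listed with no END-seq signal, had 303 proximal and 139 flank prey in 16 libraries, and 35 of 286 motifs without END-seq signal had flank prey, 383 in all.

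The 10 leading parent motifs held 2046 flank prey (21.2%), and 8 of them are on the list of frequently cut sites. After the Gm10801 site came DSB6, 805 bp from the start of Mex3a, an RNA-binding protein gene, with 289 flank prey in 19 libraries, 160 of them outward and 170 on the left. Its 231 prey in run 20 and 58 elsewhere compare with 1340 proximal prey. DSB16 in Glrx2, a mitochondrial glutaredoxin gene, had 170 flank prey with 586 proximal. The Syde2 site and DSB7 in Rab35, a small GTPase gene of endocytic recycling, had 169 each. DSB13, in the first exon of Romo1, had 162, and its median distance of 1295.5 bp was the shortest of the 10. DSB61 in Klhl2, an adaptor gene for ubiquitin ligation, had 158 flank for only 218 proximal prey, so that 42.0% of its prey within 10 kb were in the flank. DSB48, 1397 bp from the start of the non-coding RNA gene Malat1, had 151 (32.9%). DSB12 at Slc7a6os had 147 in 21 libraries, and DSB11 in Ube2d2a, a ubiquitin-conjugating enzyme gene, had 142. The next motif held 139. Outward shares of these 9 sites, without the Gm10801 site, ranged from 42.9% (DSB12) to 57.4% (DSB7).

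Few positions were hit again. Without the Gm10801 site, 59 of 8848 distinct positions (0.667%) were found in 2 or more libraries, whereas 7382 of 16748 proximal positions (44.1%) were. The position shared by the most libraries was 20969524 on chromosome 2, inward and 590 bp from DSB50, in 3 libraries, within chr2:20969509-20969538: agcggcggtggctgggctttccccacgctc. It is shown as the most recurrent flank point outside the repeat block, and these 30 bases hold no AsiSI motif. By windows of 100 bp, the most recurrent ones outside that block (singled out with their values known) were in an intron of Samhd1 near DSB34 and in the antisense gene Gm13375 near DSB50, with 8 and 7 prey in 7 libraries each.

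**Figure D4:**
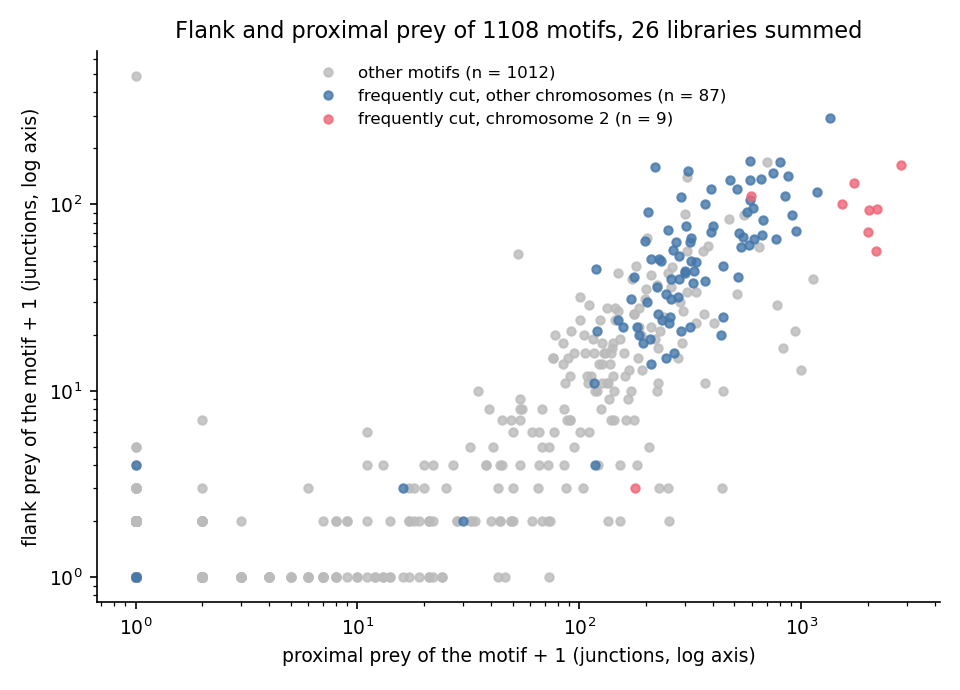
Flank prey against proximal prey for each of 1108 motifs, summed over the 26 AsiSI-MEF libraries (junctions plus 1, log axes); red marks frequently cut sites on chromosome 2, blue those on other chromosomes and grey all other motifs. Sites on chromosome 2 have many proximal prey (median 2000) for their flank prey (median 94), and the lone grey point at upper left is the Gm10801 site with 489 flank and 0 proximal prey.

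Flank prey were less often on the bait's own chromosome than proximal prey once the repeat block was set aside. In run 20, where the block is negligible, chromosome 2 held 9.52% to 12.9% of flank prey against 28.8% to 31.3% of proximal prey, with no overlap over its 6 libraries. Over all 13 controls the flank value was 22.7% ± 14.1 (SD) against 28.9% ± 1.79, a difference of -6.24 points that did not pass (exact sign-flip test, p = 0.163, 0.326 adjusted over 2). Without the Gm10801 site, which is on chromosome 2, the difference was -15.9 points and passed (p = 0.000244, exact sign-flip test). Against distal prey, with 18.9% ± 5.36 on chromosome 2, the difference was 3.77 points with that site (p = 0.429) and -5.92 without it (p = 0.00659, exact sign-flip tests). Leaving out the site removed its flank prey only, and distal prey nearest to it, all on chromosome 2, stayed in. Of 21532 distal positions over the 26 libraries, 20764 had another nearest motif. The 2 sides of that comparison were thus not treated alike. The tests of chromosome 2 were likewise added later.

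Sums and medians over sites showed the same pattern, while single sites overlapped. The 9 frequently cut sites on chromosome 2 held 814 flank and 15260 proximal prey, 5.33 flank per 100 proximal, and the 87 on other chromosomes held 5289 and 32592, or 16.2 per 100. Medians over sites were 4.54 and 14.2 per 100, leaving out 3 sites on other chromosomes that had no proximal prey. The ranges over sites, 1.13 to 18.6 and 2.56 to 72.5 per 100, overlapped. Within chromosome 2 the number per 100 was 4.54 at DSB50, 7.70 Mb from the bait, 4.27 and 6.58 at DSB83 and DSB40 near 19 Mb, and 2.52 at DSB52, 101 Mb away. It was 1.13 to 18.6 at the 5 sites from 138 to 144 Mb. Distance from the bait along the chromosome thus gave no order among these 9 sites.

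Most flank prey lay near genes. The shares below were not compared with those of the flank sequence, of the motifs or of other prey. In the controls 76.3% ± 4.89 (SD, n = 13) were within 3 kb of an annotated transcription start, 16.6% ± 5.46 were in a gene body beyond that and 7.16% ± 2.76 were intergenic. With promoters of 1 kb the first value was 38.7%. Beside the 272 motifs with protein-coding starts of a single strand within 1 kb, 50.4% ± 5.82 of prey lay downstream of the motif in the direction of transcription. That share was above 50% in 6 of 13 libraries (exact sign-flip test, p = 0.789), so no preference for the transcribed side was detected.

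CK-666 did not detectably change the share, orientation or tail of flank prey. These measures are parts of a library's own prey and can stay level when all prey fall together. The study reports a lower translocation frequency with CK-666, normalized to bait-only sequences. The 6 treated shares were 2.05%, 1.79%, 4.17%, 4.80%, 1.82% and 3.33%, in the order of replicates, against the DMSO shares given above. They were lower than the paired control in 5 of 6 pairs and overlapped them widely. The log2 ratio averaged -0.14 ± 0.30 (SD, n = 6 pairs; exact sign-flip test, p = 0.281), with pairs from -0.52 to 0.37. The outward share was 49.1% ± 9.13 with CK-666 and 54.8% ± 5.57 with DMSO (mean paired difference -5.62 points, p = 0.438, exact), a difference that rests on replicate 2 with 6 flank prey and was -0.496 points without it. The tail of outward ends, meaning the share of all outward prey within 10 kb that lie past 500 bp, was 6.47% ± 2.43 and 6.30% ± 1.70 (difference 0.166 points, p = 0.875, exact). All p-values adjusted over the 6 tests of CK-666 and NU7441 were 1. The smallest possible p with 6 pairs is 0.0312.

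With NU7441 the 3 shares were 3.79%, 1.54% and 10.6%, against 3.74%, 4.22% and 18.8% in their controls. The first pair was level and the other two were lower. The log2 ratio averaged -0.757 ± 0.738 (SD, n = 3 pairs; exact sign-flip test, p = 0.5, where 0.25 is the smallest possible). In the first pair the Gm10801 site made up most of the flank prey: without it the treated share was 1.28% and the control share 1.83%. The outward share was 53.4%, 50% and 42.8% with NU7441 and 55.0%, 47.6% and 51.2% in the controls (mean difference -2.52 points, p = 0.75, exact). In the third pair, of run 20, which has the most prey (671 and 3288), the 95% Wilson intervals of the outward share were 39.1% to 46.5% and 49.5% to 52.9%. Such intervals cover counting error within 1 library each and not the spread between pairs, so they are no test of NU7441. The tail of outward ends in that pair was 7.68% against 17.9%, while in the other pairs it was 10.1% against 7.26% and 6.76% against 5.31%. The mean difference, -1.98 points, turned to 2.13 without that pair (p = 1 and 0.5, exact).

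Wiskostatin and actin R62D-NLS had 2 pairs each, 1 of them in run 20, and were not tested. With wiskostatin the shares were 8.71% and 2.62% against 14.1% and 2.62%, and with actin R62D-NLS 8.57% and 1.86% against 14.01% and 2.01%. The lower treated share was thus seen in run 20, at log2 ratios of -0.696 and -0.709, and not in the other run of wiskostatin (0.00333), with a small difference in that of actin R62D-NLS (-0.106). The tail of outward ends was likewise lower in run 20 (13.1% against 17.8%, and 10.5% against 17.1%) and not in the other runs (5.35% against 4.11%, and 3.10% against 3.00%). Over the 3 pairs of run 20, 1 each from NU7441, wiskostatin and actin R62D-NLS, the log2 ratio of the flank share averaged -0.745 ± 0.0749 (SD). In the 10 pairs of other runs it averaged -0.236 ± 0.487, with 7 of 10 below 0.

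**Figure D5:**
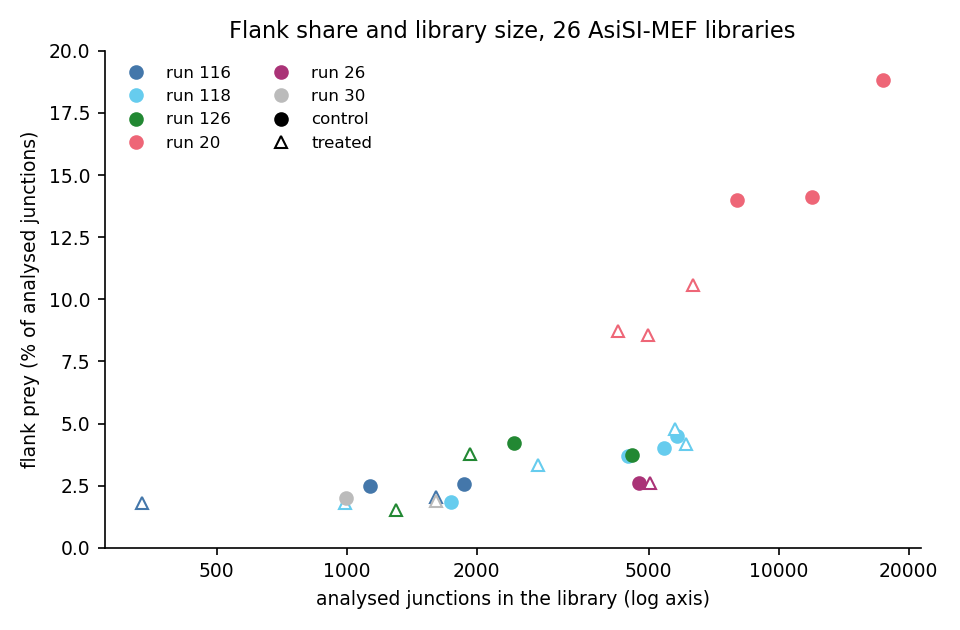
Share of flank prey (percentage of analysed junctions) against the number of analysed junctions (log axis) in the 26 AsiSI-MEF libraries; filled circles are controls, open triangles treated libraries, and colours sequencing runs. Shares rise with library size in run 20, and in run 118 with the Gm10801 site included as here (r = 0.952, or 0.803 without it), and in run 20 the 3 treated libraries are both smaller and lower (8.57% to 10.6%) than the 3 controls (14.01% to 18.8%).

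The number of junctions moved with the flank share in the 2 runs with at least 6 AsiSI libraries. Over the 8 libraries of run 118, all of the CK-666 experiment, Pearson's r between log2 junctions and the share was 0.952 and Spearman's rho 0.905 (exact permutation test, p = 0.000471 and 0.00456, adjusted over 2 runs 0.000942 and 0.00913). Over the 6 libraries of run 20 the values were 0.967 and 0.943 (p = 0.00278 and 0.0167, exact, and the same adjusted). When the 2 libraries farthest from the median size were left out, r was 0.839 over 6 and 0.906 over 4. The permutations here and in the next paragraph treated libraries as exchangeable. They ignored the pairs of treated and control libraries, so their p-values do not allow for likeness within pairs.

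In run 118 the relation rested in part on the Gm10801 site. With shares taken without it, r was 0.803 and rho 0.619 there (p = 0.0142 and 0.115, exact permutation test, the same adjusted), and r fell to 0.404 without the 2 libraries farthest from the median size. The share of the largest library of that run, CK-666 replicate 3, went from 4.17% to 2.59%. In run 20 the values were 0.963 and 0.886 (p = 0.00556 and 0.0333, exact, 0.0111 and 0.0667 adjusted). The other runs had 2 or 4 AsiSI libraries and were not tested, and in run 30 the larger library had the lower share (1.86% of 1609 junctions against 2.01% of 997). The treated library was the smaller one in 3 of 3 pairs of run 20 and in 5 of 10 others. In run 20 treatment and library size therefore cannot be told apart, and what part size plays in the share was not tested.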

How the data were processed

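HTGTS junction tables of 32 libraries were analysed. The 12 Hi-C samples of the series were not analysed here. The reads were aligned by the authors to mm10 (Burrows–Wheeler Aligner) and passed through the default HTGTS filters. The deposited values are therefore genome positions and strands of single junctions, with a mapping quality over 30 and duplicates removed, and are not normalized. All 148726 deposited junctions had the bait at the break. The authors' bait-only sequence numbers were not used here, so shares are of a library's analysed junctions.

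Motif positions and the order of END-seq values came from the study's list, sequences from GRCm38 and genes from GENCODE vM21. Each junction was given to its nearest motif. Density is junctions per Mb of flank or of the remaining sequence without N. Treated and control libraries were paired by replicate number and compared by the exact 2-sided sign-flip test over pairs. Over control libraries (13) the same test compared zones or orientations, and AsiSI and Cas9 libraries were compared by an exact permutation test. P-values were adjusted within families by the method of Benjamini and Hochberg. Counting intervals are 95% Wilson intervals and cover counting error only. Pairs shared a sequencing run, as the read names show, and for NU7441 their deviations from group means over 243 windows of 1 Mb correlated at 0.159 to 0.599. Named sites were the 10 motifs with the most flank prey and the 6 windows of 100 bp in the most libraries. The functions were tested on simulated data. Alternatives were other limits (1 and 5 kb), positions counted once, the 97 frequently cut sites, and leaving out motifs with a neighbour within 20 kb, the leading motif, chromosome 2 from 11 to 16 Mb, and each library. Members, lists and tests were chosen with earlier results of these data known. Tests used scipy 1.17.1 under Python 3.11.15, tables pandas 2.3.3 with numpy 2.4.6, sequences pysam 0.24.0 and figures matplotlib 3.10.9.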

Additional observations from a re-analysis of the deposited data

Results flagged for a closer look

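In groups of 4 to 10 libraries, 8 measures of flank prey were checked in both groups of the CK-666 experiment for a library far from the others, and 1 of these 16 checks stood out. With CK-666, replicate 3 had 45.9% of its flank prey on chromosome 2, and the other 5 libraries lay between 16.7% and 27.2%. Of its 255 flank prey, 99 lay beside the Gm10801 site on that chromosome. Chance alone flags about 1 in 20 such groups.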

How the results depend on the processing

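Over 38 results and all alternatives, 659 of 724 recomputed values were counted as unchanged. Leaving out motifs with a neighbour within 20 kb, or chromosome 2 from 11 to 16 Mb, changed none. Tested results counted as unchanged when they kept direction and side of the threshold. Results with no test counted as unchanged when they moved by less than their SD, whatever their sign. Among these, the outward share difference turned sign between the 2 pairs of wiskostatin (-1.67 and 10.8) and of actin R62D-NLS (-5.33 and 20). All differences between shares below are in percentage points. Where no cause is shown by a setting itself, the cause was not tested. Depth is a limit for the conditions: 8 of the 26 AsiSI libraries had 33 or fewer flank prey.

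The replicate pairing decided no call. Pairs of CK-666 correlated in their deviations at 0.0759 to 0.420, and the lowest, replicate 2, was under 0.1. With no replicate block the p of the flank share was 0.656 for CK-666 and 0.6 for NU7441 (exact permutation tests).

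Without the Gm10801 site, the tail of outward ends with CK-666 was -0.00935, insertions of flank against proximal prey were -3.19 (outward) and -8.32 (inward), and the chromosome 2 share was -15.9 against proximal and -5.92 against distal prey. With the inner limit at 1 kb, the outward share with NU7441 was 0.503, that of flank against distal prey 5.36, and blunt and long joins of outward flank against proximal prey -0.114 and -1.21. With the outer limit at 5 kb, blunt joins of outward prey were 5.33 and insertions -3.10 (outward) and -8.16 (inward) against proximal prey, and the chromosome 2 share was -15.75 against proximal and -6.75 against distal prey. With the outer limit of 5 kb or the frequently cut list, prey of the Gm10801 site leave the flank and count as distal. The distal share of chromosome 2 in those settings therefore includes them. Leaving out the Gm10801 site itself removed its flank prey only, and distal prey nearest to it stayed in.

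With the 97 frequently cut sites only, each junction was given to the nearest of these sites. Prey at all other motifs then count as distal, or as flank where a listed site lies within 10 kb. The zones of this setting therefore differ from those above. Against proximal prey, long joins of outward prey were 4.06, insertions -4.22 (outward) and -12.6 (inward), and blunt joins of inward prey -1.58. The chromosome 2 share was -17.5 against proximal and -7.98 against distal prey. With each position and strand counted 1 time, blunt joins and insertions of inward prey were 4.004 and -7.89. With promoters of 1 kb the promoter share was 38.7%.

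Without run 20, an alternative added after seeing the data, the outward share and tail with NU7441 were 0.441 and 2.13 (the same within run 126), and blunt and short joins of outward prey -2.08 and 1.07 and blunt joins of inward prey 3.89 against proximal prey. Within run 116 the tail with CK-666 was -1.20. Within the run of the Cas9 libraries, also added later, the AsiSI to Cas9 differences in log2 density were 2.66 (outward) and 3.16 (inward), with p = 0.25 the smallest that 1 library against 3 can give (exact permutation test). In run 20 alone, 3 controls cannot give p under 0.25. There the outward share was 6.02 over distal prey, the log2 densities 6.98 and 6.63, blunt, short, cut-end and 1-base-short differences by orientation 28.3, -27.6, 17.2 and -26.04, short, long and blunt joins of inward flank against proximal prey 54.7, -39.996 and -3.83, insertions of outward prey -2.94, blunt joins of outward flank against proximal prey 9.24, chromosome 2 against distal prey -9.53, the mean share 15.6% and the mean tail 17.6%.

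Leaving out 1 library at a time gave -0.0714 to 0.757 for the tail with CK-666 (below 0 without pair 3, 4 or 5), and -4.995 to 0.441 for the outward share and -4.38 to 2.13 for the tail with NU7441 (both turned without pair 3). For outward flank against proximal prey it gave -0.521 to 2.17 for blunt joins (below 0 without the CK-666 control 5, the wiskostatin control 1 or the NU7441 control 3), -1.86 to 0.404 for short (above 0 without the CK-666 control 3 or 6 or the wiskostatin control 1), -1.32 to -0.690 for long (passing without the CK-666 control 4, p = 0.00244, exact) and -1.15 to 1.49 for insertions (below 0 without the NU7441 control 1). For inward prey it gave 1.69 to 2.81 for blunt (passing without the NU7441 control 3, p = 0.0386, exact) and -5.64 to -3.26 for insertions (passing without the NU7441 control 1, p = 0.00439, exact). By orientation it gave -2.18 to -1.09 for long overlaps (passing without the CK-666 control 4, p = 0.00977, exact) and -2.95 to -1.73 for insertions (passing without the CK-666 control 6, p = 0.0234, exact). The chromosome 2 share against proximal prey lay from -9.49 to -4.97 (passing without the NU7441 control 1, p = 0.00977, exact).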

Other observations

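The flanks hold 928 sites that differ from the AsiSI motif by 1 base. Without the Gm10801 site, 34 of 9184 flank prey lay within 20 bp of such a site. The density of prey at the same parent motifs and distances gives 24.8 for windows of that size. No flank prey lay within 20 bp of a listed motif, as the 500 bp limit sets.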
